A study of Mus musculus with 11 samples.

Results

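The GIMAP genes (GTPases of immunity-associated proteins) were followed in regulatory T cells (Tregs) sorted from mouse tumors and spleens. The members were the 8 mouse genes Gimap1 and Gimap3 to Gimap9, found by their symbols among the 14604 genes of the deposited table, and all 8 were listed. RNA had been sequenced in 11 libraries, 3 from spleens and 3 from tumors of wild-type mice, and 3 from spleens and 2 from tumors of knockout mice. All mice carried MC38, a mouse colon adenocarcinoma line, and all were homozygous for a floxed Cd177 allele (CD177flox/flox). The mice called wild type had only this allele, and the knockout mice also had FOXP3-CreYFP, a Cre recombinase driven by the Treg gene Foxp3, so that the loss of Cd177 and the presence of Cre-YFP cannot be told apart. The spleens came from the tumor-bearing mice themselves, so no library represents a mouse without a tumor. Tregs were sorted as live CD4+GITR+CD25+ cells. The labels do not give the age of the mice or say that the numbered replicates are separate animals, so p-values measure only the spread between these libraries. The table used here has no entry for Cd177, so the deletion itself was not checked.

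GIMAP proteins are GTP-binding proteins of lymphocytes, most of them held on intracellular membranes such as those of the endoplasmic reticulum, Golgi, mitochondria and lysosomes. Loss of Gimap5 in rats and mice depletes peripheral T cells, and Gimap1 is needed for mature T and B cells, so that the family is best known for keeping lymphocytes alive once they have left the thymus or bone marrow. Several members have been linked to proteins of the BCL-2 family, Gimap6 to autophagy, and Gimap3, a close paralog of Gimap5, to the inheritance of mitochondrial DNA.

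The 8 genes lie side by side on mouse chromosome 6. In the GENCODE M21 annotation of GRCm38 (mm10) the cluster runs from 48647234 to 48770851, a span of 123.6 kb. From its low end the order is Gimap8, Gimap9, Gimap4, Gimap6, Gimap7, Gimap1, Gimap5 and Gimap3. Gimap6 and Gimap3 are on the minus strand and the other 6 are on the plus strand. Each is annotated as protein coding. The 250 bases before the start of transcription are shown for 4 members, from RefSeq (GRCm38.p6), written 5′ to 3′ on the strand of the gene. Gimap6 and Gimap3 had the lowest tumor level relative to spleen, and Gimap4 and Gimap7 the smallest differences, as given below with their values. The windows are chr6:48708245-48708494 for Gimap6, chr6:48770852-48771101 for Gimap3, chr6:48684328-48684577 for Gimap4 and chr6:48718371-48718620 for Gimap7. Capitals mark matches, on either strand, to the short motifs GTAAACA (FOXO factors), CCACCC (KLF factors), TGTGGT (RUNX factors), AGGAAG (ETS factors) and CTTTGA (TCF factors), and no 2 of the matches shown overlap.
Gimap6: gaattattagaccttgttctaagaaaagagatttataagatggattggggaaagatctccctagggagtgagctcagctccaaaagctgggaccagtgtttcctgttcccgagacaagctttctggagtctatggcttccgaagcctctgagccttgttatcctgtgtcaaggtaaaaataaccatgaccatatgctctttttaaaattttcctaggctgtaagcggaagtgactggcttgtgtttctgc
Gimap3: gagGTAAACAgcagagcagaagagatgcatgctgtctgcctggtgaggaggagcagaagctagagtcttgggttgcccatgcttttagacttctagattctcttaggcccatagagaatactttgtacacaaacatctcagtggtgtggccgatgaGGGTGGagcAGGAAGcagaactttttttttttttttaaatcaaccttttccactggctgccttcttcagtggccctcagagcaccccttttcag
Gimap4: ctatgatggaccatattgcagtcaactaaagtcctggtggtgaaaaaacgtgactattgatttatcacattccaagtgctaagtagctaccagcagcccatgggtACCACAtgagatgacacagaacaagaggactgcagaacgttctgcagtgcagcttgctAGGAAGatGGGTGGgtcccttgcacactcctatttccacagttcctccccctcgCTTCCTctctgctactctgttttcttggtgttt
Gimap7: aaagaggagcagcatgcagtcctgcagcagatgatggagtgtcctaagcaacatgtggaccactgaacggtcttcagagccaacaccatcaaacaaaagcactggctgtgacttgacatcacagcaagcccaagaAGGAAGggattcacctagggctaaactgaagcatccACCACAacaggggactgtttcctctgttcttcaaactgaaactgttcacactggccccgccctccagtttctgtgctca

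The Gimap6 window held none of these letters. The Gimap3 window held the FOXO, KLF and ETS letters, the Gimap4 window the RUNX, ETS and KLF letters, and the Gimap7 window the ETS and RUNX letters. Gimap8 has 2 annotated starts, which gave 9 windows for the 8 members. The ETS letters were in 7 of the 9 windows and in 29.5% of 32851 mouse promoter windows of this length. The KLF letters were in 5 of 9, against 28.1% of all windows, and the RUNX letters in 3 of 9, against 14%. The FOXO letters were in 1 of 9 (3.17% of all windows) and the TCF letters in none (13.8%). These are matches of letters in a short window and say nothing of binding.

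The first question was whether Gimap genes differed between tumor-infiltrating (TI) and splenic Tregs. All 8 were lower in TI-Tregs, by between 1.27 and 3.83 times, and each passed the limma test with Benjamini-Hochberg adjustment over 13897 genes at an adjusted p below 0.05. Gimap6 and Gimap3 differed most and Gimap7 least. The deposited unit was log2(n + 1), where n comes from estimated read counts by a scaling that is not stated, so differences are on a log2 scale. This tissue contrast is wide: 78.9% of all genes tested passed in either direction, 35.9% lower in tumor and 43.1% higher. The 8 of 8 is read against the share that was lower. The median difference of the 8 members was -1.37, beside 0.08 for all genes tested. In 7 of the 8 every tumor library was below every spleen library, which held for 28.4% of all genes tested.

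**Figure D1:**
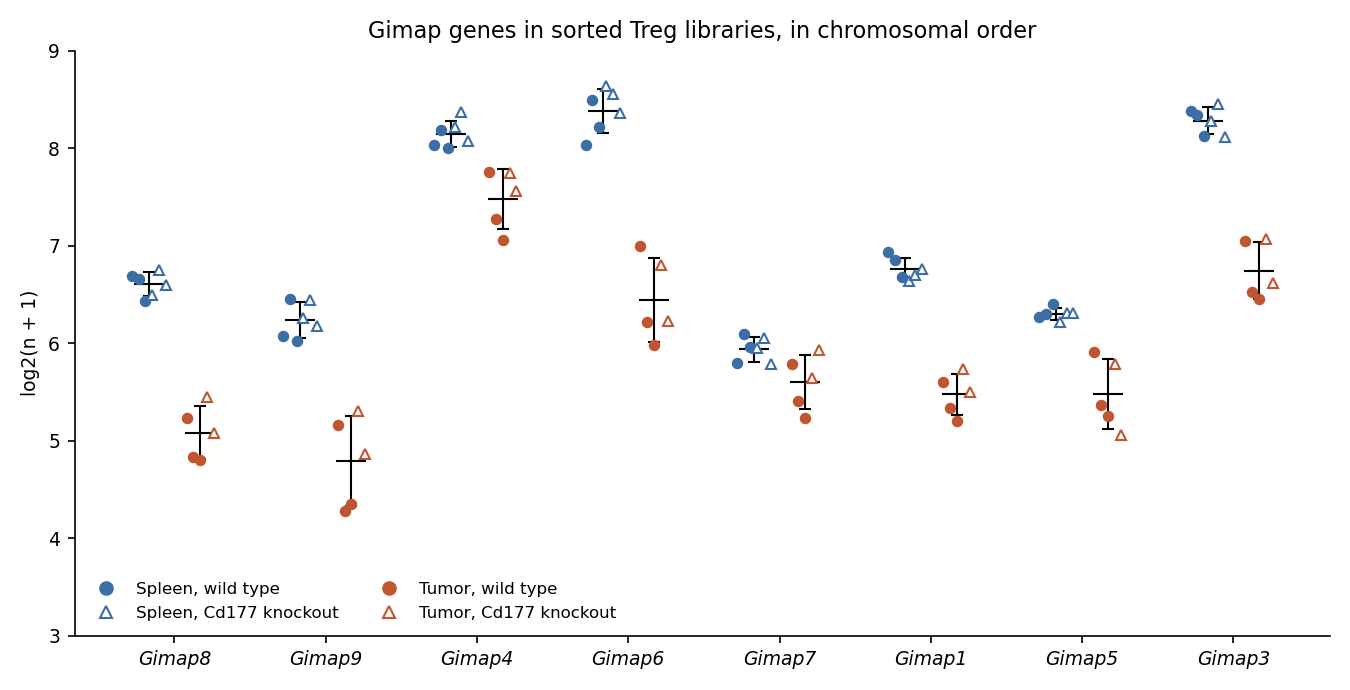
Level of each Gimap gene, in log2(n + 1), in each of the 11 Treg libraries, with genes in chromosomal order; black bars are the mean and SD over 6 spleen (blue) and 5 tumor (red) libraries, filled circles are wild type and open triangles knockout. Tumor values lie below all spleen values except for Gimap7. Whether n is adjusted for gene length is not stated, so heights should not be compared between genes.

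Gimap6, which binds the autophagy protein Gabarapl2, differed most. Its values in spleen were 8.03, 8.50 and 8.22 in wild-type and 8.64, 8.55 and 8.36 in knockout libraries. In tumor they were 7.0, 6.22 and 5.98 in wild-type and 6.81 and 6.23 in knockout libraries. The lowest spleen library was 1.04 log2 units above the highest tumor library, and in each genotype the first tumor replicate was the highest. Spleen averaged 8.38 ± 0.23 (SD over 6 libraries) and tumor 6.45 ± 0.43 (SD over 5), a difference of -1.94 (SE 0.18, limma adjusted p = 3.82e-07), or 3.83 times lower.

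Gimap3 and Gimap5 encode closely related proteins and share sequence, so their estimated counts can be split unevenly between them. Gimap3 values were 8.38, 8.34 and 8.13 in wild-type spleen, 8.28, 8.45 and 8.12 in knockout spleen, 7.04, 6.52 and 6.45 in wild-type tumor, and 7.07 and 6.62 in knockout tumor. Gimap3 fell by 1.54 in tumor (SE 0.12, limma adjusted p = 8.95e-08). The Gimap5 values were 6.27, 6.30 and 6.40 in wild-type spleen, 6.22, 6.31 and 6.31 in knockout spleen, 5.91, 5.37 and 5.26 in wild-type tumor, and 5.79 and 5.06 in knockout tumor. Splenic Gimap5 was the steadiest of the members (SD 0.059, n = 6), whereas its tumor libraries ran from 5.06 to 5.91. Its difference was -0.83 (SE 0.13, limma adjusted p = 7.20e-05), and the gap from Gimap5 up to Gimap3 within a library was on average lower in tumor (1.27) than in spleen (1.98). Of the 31-base words in their GENCODE transcripts, 335 were common to both genes, out of 2547 for Gimap3 and 4176 for Gimap5. Summed, n of the pair was, on the log2 scale, 8.61 ± 0.10 in spleen (n = 6) and 7.24 ± 0.31 in tumor (n = 5). The difference was -1.37. This sum is free of how shared reads were divided only if n is not adjusted for gene length, which is not stated.

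Gimap1, required for mature lymphocytes, was 6.76 ± 0.11 in spleen (n = 6) and 5.47 ± 0.21 in tumor (n = 5), and fell by 1.29 (SE 0.094, limma adjusted p = 4.92e-08). Its highest tumor library (5.73) was 0.91 below its lowest spleen library (6.64). Gimap1 shares 38.2% of its 31-base words with other genes, most of them (1049) with the antisense gene Gimap1os. That gene is annotated over 1107 exonic bases of Gimap1 and is not among the listed genes. No strand setting is stated, so reads from the stretches that the 2 genes share cannot be told apart.

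Gimap8, a large member of the family with several GTPase domains, was 6.60 ± 0.12 in spleen and 5.08 ± 0.27 in tumor, and fell by 1.52 (SE 0.11, limma adjusted p = 5.27e-08). The spleen libraries lay between 6.43 and 6.75 and the tumor libraries between 4.81 and 5.45. Gimap9 was 6.24 ± 0.18 in spleen and 4.79 ± 0.47 in tumor, and fell by 1.45 (SE 0.18, limma adjusted p = 7.27e-06). Its tumor values were 5.16, 4.28 and 4.35 in wild-type and 5.31 and 4.86 in knockout libraries, all below the lowest spleen value of 6.02. Gimap9 and Gimap4 shared no 31-base word with another gene.

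Gimap4, which has been linked to Bax and to the timing of T-cell death, was 8.15 ± 0.14 in spleen and 7.48 ± 0.31 in tumor. It fell by 0.67 (SE 0.12, limma adjusted p = 2.65e-04), with spleen libraries between 8.0 and 8.37 and tumor libraries between 7.06 and 7.76. Gimap7, a member whose GTP hydrolysis depends on dimerization, differed least. In spleen its values were 5.80, 6.09 and 5.96 in wild-type and 5.95, 6.05 and 5.78 in knockout libraries. In tumor they were 5.78, 5.41 and 5.24 in wild-type and 5.64 and 5.93 in knockout libraries, so the 2 tissues overlapped. Gimap7 fell by 0.34 (SE 0.11, limma adjusted p = 0.0158), or 1.27 times. In exact two-sided permutation tests over all 462 assignments of tissue to the libraries, the 7 genes whose tissues did not overlap gave p = 0.0043 each, the smallest that 6 against 5 allows.

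The ranking by size is not equal spacing. Gimap6, Gimap3, Gimap8, Gimap9 and Gimap1 had differences between -1.94 and -1.29, and Gimap5, Gimap4 and Gimap7 between -0.83 and -0.34. In the list of all 13897 genes ordered from the largest fall, Gimap6 stood at place 278, Gimap3 at 595, Gimap8 at 614 and Gimap7 at 4623. Shifting all log2 values of a library by the same amount cannot move the gap between Gimap6 and Gimap7 within it, though quantile normalization can. As deposited, this gap was 2.44 ± 0.18 log2 units in spleen (2.24 to 2.69) and 0.85 ± 0.37 in tumor (0.31 to 1.21). The 8 members together took 0.173% ± 0.021 of n in spleen libraries and 0.0478% ± 0.0101 in tumor libraries. These shares ranged from 0.145% to 0.209% in spleen and from 0.0335% to 0.0588% in tumor.

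Gimap7, Gimap1 and Gimap5 also overlap, on the same strand, exons of Gm28053, a gene model that reads through this stretch. Gm28053 was low, at 2.57 ± 0.42 in spleen and 2.04 ± 0.29 in tumor, with overlapping tissues and a difference of -0.54 (limma adjusted p = 0.0278). Adding n of these 4 genes gave 7.98 ± 0.054 in spleen and 7.12 ± 0.22 in tumor, a difference of -0.85 with no overlap.

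Several markers moved between the same libraries, where 43.1% of all genes were higher in tumor and 35.9% lower. The 16 listed genes of a myeloid list were all higher in tumor, with list means of 3.67 to 4.74 in spleen and 8.97 to 9.41 in tumor (S100a8 and S100a9 are not listed). Of 6 listed fibroblast genes 5 were higher, with list means of 0.69 to 0.82 in spleen and 5.43 to 6.34 in tumor (Dcn, Lum and Pdgfra are not listed). All 6 listed B-cell genes were lower (means 2.76 to 4.42 in spleen, 1.36 to 2.73 in tumor). Of the 10 CD8 T and NK-cell genes 7 were higher, 1 was lower (Klrb1c, -1.39) and 2 were not called (Ncr1, 0.27, and Eomes, -0.15). The means of this list were 2.17 to 2.91 in spleen and 3.18 to 4.95 in tumor. Of 8 listed erythroid and platelet genes 7 were lower and 1 was higher (means 3.26 to 4.90 in spleen, 2.35 to 3.25 in tumor). Of 7 listed endothelial genes 2 were higher and 3 lower (means 1.91 to 2.02 in spleen, 1.69 to 1.90 in tumor). The totals of n were 712832 to 844331 in spleen and 1103159 to 1304548 in tumor. In such bulk samples fewer Tregs in a sort and less Gimap RNA per Treg cannot be told apart, and the part of these other cells in the Gimap differences was not tested.

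Genes of the T-cell lineage were read in the same libraries, as a reference that is not particular to Tregs. Of 20 such genes 17 were lower in tumor and 3 (Cd2, Cd3g and Thy1) were not called, where 35.9% of all genes were lower. Their median was -0.83. Single genes ran from -1.93 (Skap1) to 0.02 (Thy1), so the genes of the list did not move equally. The mean of the list was 7.63 ± 0.038 in spleen (n = 6) and 6.71 ± 0.37 in tumor (n = 5). In tumor it was 7.20, 6.43 and 6.59 in wild-type and 6.98 and 6.33 in knockout libraries, while the mean of the 8 Gimap genes was 6.19, 5.66 and 5.54 in wild-type and 6.19 and 5.86 in knockout libraries. The 2 tumor libraries highest in T-cell genes, the first replicate of each genotype, were thus also highest in Gimap genes. The members' mean minus the T-cell mean was -0.54 ± 0.11 in spleen and -0.82 ± 0.23 in tumor. Of the 5 tumor libraries 4 lay below all spleen libraries on this measure, and the second knockout tumor library, at -0.47, lay among them.

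Centring each library on the mean of these 20 genes split the family. Gimap6 (-1.02, limma adjusted p = 4.92e-06), Gimap3 (-0.62, adjusted p = 0.000476), Gimap8 (-0.60, adjusted p = 0.00151), Gimap9 (-0.53, adjusted p = 0.00826) and Gimap1 (-0.37, adjusted p = 0.0356) were still lower in tumor. Gimap5 (0.09, adjusted p = 0.512) and Gimap4 (0.25, adjusted p = 0.135) were no longer called, and Gimap7 was higher (0.58, adjusted p = 0.00618). Without the second knockout tumor library, in which Gimap7 reached its highest tumor value, Gimap7 was 0.40 higher on this scale (adjusted p = 0.0129). Centring on Cd3d, Cd3e and Cd3g alone, the invariant chains of the T-cell receptor complex, left Gimap7 at 0.01 (adjusted p = 0.970) and Gimap4 at -0.32 (adjusted p = 0.0677), with the other 6 lower. These scalings move every gene together: the median of all genes was 1.0 under the 20-gene centring and 0.43 under the CD3 centring, and the share of calls that were higher in tumor was 91.7% and 73.0%, beside 54.5% as deposited. Relative to the median of all genes, the members' median was -1.45 as deposited and under both centrings, which shift whole libraries and cannot move it. With libraries brought to equal totals (median of all genes -0.44, 29.6% of calls higher), by quantile normalization (-0.16, 42.1%) or by centring on library medians (-0.14, 43.4%), all 8 Gimap genes were lower in tumor and called.

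**Figure D2:**
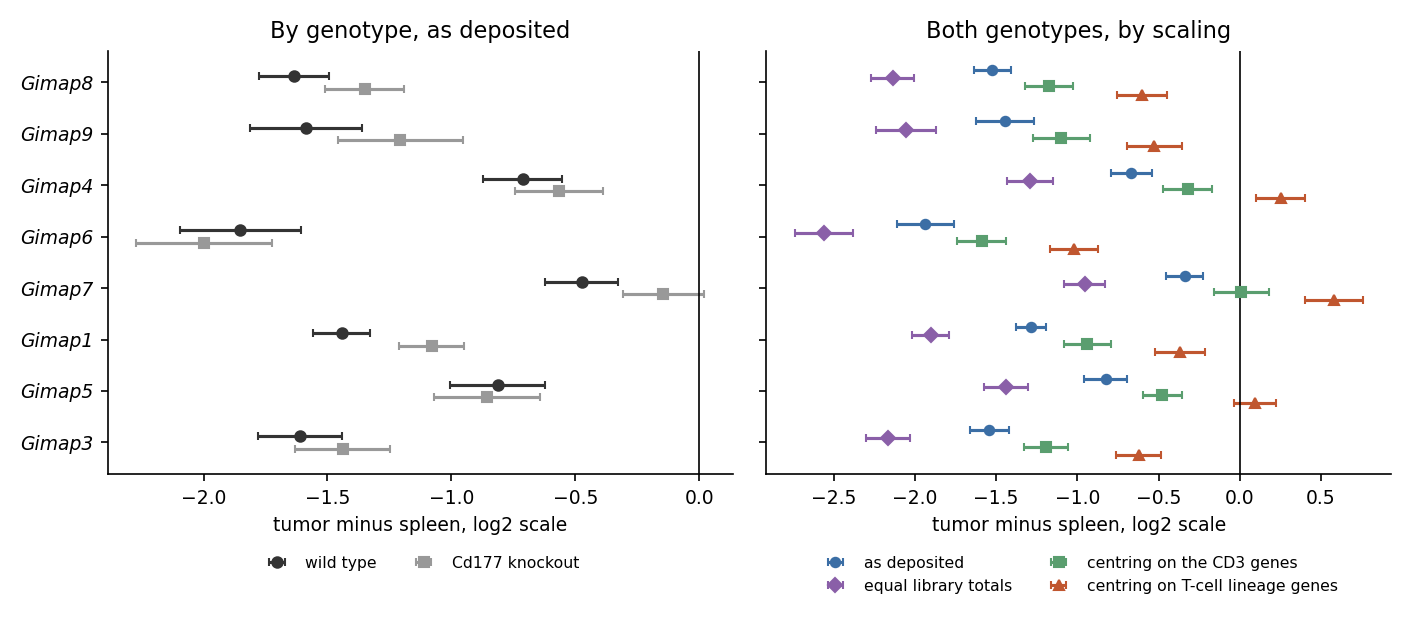
Difference of each Gimap gene, tumor minus spleen on the log2 scale, with SE bars: left, within wild-type (black circles) and knockout (gray squares) libraries as deposited, and right, over all 11 libraries as deposited (blue), at equal library totals (purple), centred on the CD3 genes (green) and centred on 20 T-cell lineage genes (red). Gimap6 is far below 0 on all 4 scales, whereas Gimap7 runs from below 0 as deposited to 0.58 above 0 with T-cell centring, and Gimap4 and Gimap5 end slightly above 0 on that scale.

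The tissue difference was then taken within each genotype. In wild-type mice all 8 Gimap genes were lower in tumor, beside 31.3% of all genes, with a median of -1.52 (0.10 for all genes) and a range from -1.85 for Gimap6 to -0.47 for Gimap7. In knockout mice 7 of 8 were lower, beside 29.5% of all genes, with a median of -1.14 (0.08 for all genes). With T-cell centring 5 members were called in wild-type mice, all lower, beside 654 of 13897 genes lower and 8608 higher. The median of the 8 members was then -0.63 (0.98 for all genes). On that scale 2 members were called in knockout mice, 1 lower and 1 higher, beside 453 of all genes lower and 8595 higher. There the median of the 8 members was -0.17 (1.05 for all genes). As deposited, Gimap7 was the member not called in knockout mice, at -0.14 (SE 0.16, limma adjusted p = 0.461). The knockout contrast rests on 2 tumor libraries. Without the second of them 5 members were called, and Gimap4 (adjusted p = 0.111) and Gimap5 (adjusted p = 0.0730) also missed the threshold. Without the second knockout spleen library, 6 were called and Gimap4 had an adjusted p of 0.0539. That spleen library had the highest mean of the B-cell list (4.42, other spleen libraries 2.76 to 3.40) and the highest value of 3 Gimap genes among spleen libraries. In wild-type mice, Gimap7 missed the threshold without the second spleen library (adjusted p = 0.0554) or without the third tumor library (adjusted p = 0.0601).

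Whether the tissue difference depended on genotype was tested by the limma interaction term. It called 0 of the 8 Gimap genes and 0 of 13897 genes (0%), and 383 genes (2.76%) had an unadjusted limma p below 0.05, none of them a Gimap gene. The members' interaction terms lay between -0.15 and 0.38, and the smallest unadjusted p was 0.0626, for Gimap1 (0.36, 95% interval -0.02 to 0.75). For Gimap7 the term was 0.33 (95% interval -0.16 to 0.82), an interval that holds differences as large as the wild-type tissue difference itself.

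Knockout was compared with wild type in each tissue, a contrast that holds the presence of Cre-YFP as well as the Cd177 deletion. In spleen no Gimap gene was called, beside 0 of all genes (0%, with 281 genes or 2.02% at an unadjusted p below 0.05), and the members' differences, knockout minus wild type, ran from -0.12 for Gimap1 to 0.27 for Gimap6. In tumor no Gimap gene was called, beside 1 gene of all (0.0072%, with 634 genes or 4.56% at an unadjusted p below 0.05). There 7 of the 8 members were above 0, with a median of 0.26, beside -0.01 for all genes. The members' median was 0.13 without the first knockout tumor library, 0.14 without the third wild-type tumor library and 0.43 without the first wild-type one. Gimap9 had the largest value, 0.49 (95% interval -0.07 to 1.05, limma unadjusted p = 0.080), and Gimap5 was the one below 0, at -0.09 (95% interval -0.57 to 0.39). The 2 genotypes overlapped for all 8 genes in both tissues. The share of all genes that overlapped was not taken, so this says nothing particular to the members. In tumor, medians of other lists, knockout minus wild type, were 0.75 (B cells), 0.49 (Treg identity), -0.10 (T-cell lineage) and -0.91 (CD8 T and NK cells). None of the genes of these lists was called, and their part in the Gimap values was not tested.

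The members varied together from library to library. Over the 11 libraries Pearson's r between pairs of Gimap genes ran from 0.63 to 0.99 (28 pairs, median 0.94), which includes the tissue difference that all share. After the mean of each tissue and genotype was taken off, r ran from 0.24 to 0.94 (median 0.79). These are descriptions over libraries that also share their depth and cell makeup. The genes whose levels were most like the mean of the standardized members over 11 libraries were Cd27, a costimulatory receptor of the TNF receptor family (r = 0.994), Rhoh, a GTPase of blood cells that acts in T-cell receptor signaling (0.991), Trim59 (0.991), Slc35f2 (0.991) and Cd247, the zeta chain of the T-cell receptor complex (0.990). Cd27 was 7.35 ± 0.088 in spleen and 5.78 ± 0.39 in tumor, and Cd247 was 7.01 ± 0.061 and 5.74 ± 0.26. The least like were Msantd4 (-0.994), 2700081O15Rik (-0.992) and Kif3a (-0.990), which were higher in tumor.

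Genes of known GIMAP partners were read beside the members. Of 9 genes that encode reported partners or targets, 6 were higher in tumor, 1 was lower and 2 were not called, where 43.1% of all genes were higher and 35.9% lower. Their median was 0.82, beside 0.08 for all genes. Bcl2, which protects lymphocytes from apoptosis, was 6.17 ± 0.16 in spleen (n = 6) and 3.74 ± 0.41 in tumor (n = 5), and fell by 2.43. Its tumor values were 4.03, 4.05 and 3.78 in wild-type and 3.79 and 3.05 in knockout libraries, all below the lowest spleen value of 5.95. Bcl2l1, which encodes the survival protein BCL-XL, was higher by 2.28 and Mcl1, another survival protein, by 1.11. Of the proapoptotic genes, Bad was higher by 1.18 and Bax by 0.82, and Bcl2l11, which encodes BIM, was not called (0.18). Hspa8, a chaperone, was higher by 0.93 and Gabarapl2, the autophagy partner of Gimap6, by 0.40. Gsk3b, a kinase restrained by Gimap5 in T cells, was not called (-0.14). Such genes are also used by the myeloid and stromal cells whose markers were higher in tumor, and the part of those cells was not tested.

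Genes that keep T cells in a resting, recirculating state were mostly lower as well. Of 13 such genes 11 were lower in tumor, 1 was higher and 1 was not called, where 35.9% of all genes were lower and 43.1% higher. Their median was -1.83, beside 0.08 for all genes. Tcf7 and Lef1, transcription factors of naive T cells, differed by -3.72 and -3.40, and Bach2, a repressor of effector programs, by -3.53. S1pr1, the receptor for exit from lymphoid organs, differed by -2.59. Il7r, the receptor for the survival cytokine IL-7, was not called (-0.03), and Ccr7, a lymph-node homing receptor, was higher by 0.38. Ets1 and Ikzf1, transcription factors of the lymphoid lineage, differed by -0.84 and -1.36. Of the 7 Treg identity genes, 2 were higher (Tnfrsf18, 1.08, and Ctla4, 0.57), 3 were lower (Ikzf2, -1.09, Foxp3, -0.85, and Ikzf4, -0.67) and 2 were not called (Il2ra and Il2rb). Il2ra and Tnfrsf18 encode CD25 and GITR, on which the cells were sorted.

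**Figure D3:**
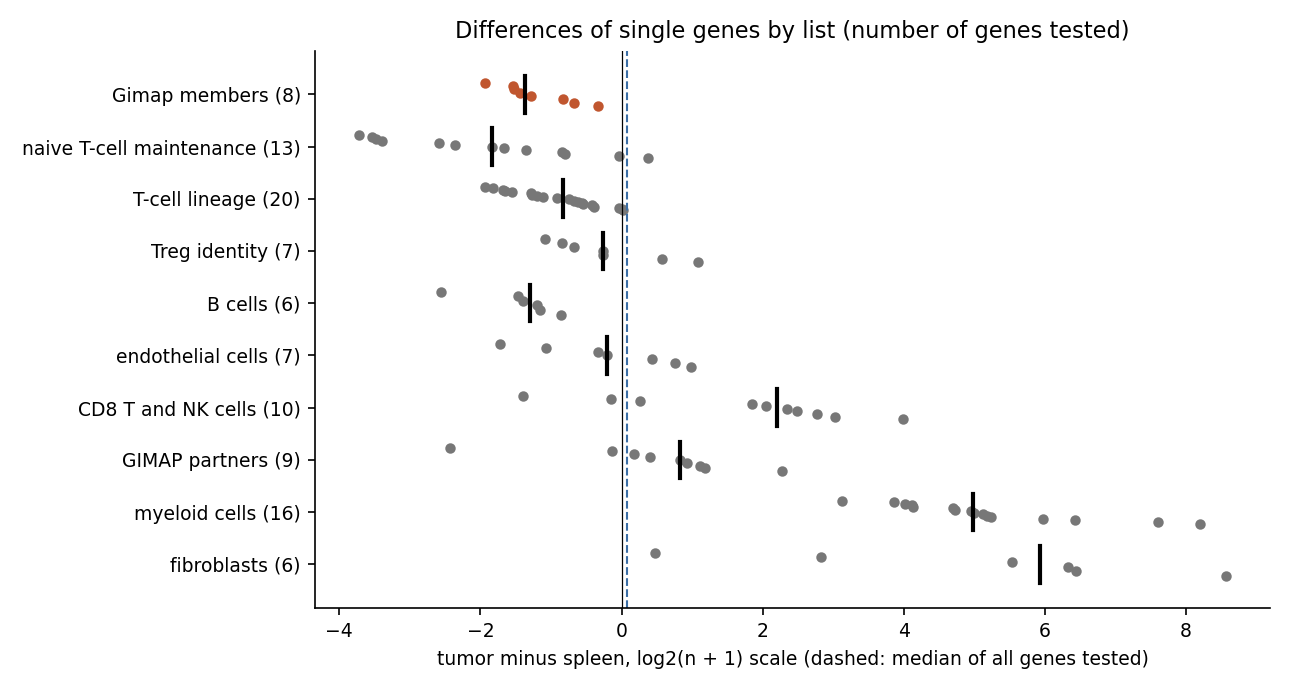
Difference of single genes, tumor minus spleen on the log2(n + 1) scale, for the Gimap genes (red) and 9 other lists (gray); black ticks are list medians, the dashed line is the median of all genes tested (0.08), and the number of genes tested is in brackets. The median of the Gimap genes (-1.37) lies between those of the T-cell lineage list (-0.83) and the naive T-cell maintenance list (-1.83), with single genes of all 3 lists overlapping, and the myeloid and fibroblast genes lie far above 0.

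Genes around the cluster moved in both directions, in shares near those of all genes. Of 14 other listed genes that start within 500 kb, 13 passed the filter on low values, of which 6 were higher in tumor, 4 were lower and 3 were not called, beside 43.1% higher and 35.9% lower among all genes. Their median was 0.05, beside 0.08 for all genes. On the low side, the nearest 2 were Zfp775, which was not called, and Repin1, a zinc-finger gene, which was higher by 1.58. On the high side, the nearest were Tmem176b (2.80) and Tmem176a (2.42), membrane proteins of myeloid cells, followed by Gpnmb, a glycoprotein of macrophages (4.0). Those lower were Krba1 (-1.86), Zfp467 (-1.04), Lrrc61 (-0.72) and Gm28053, which overlaps the members.

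**Figure D4:**
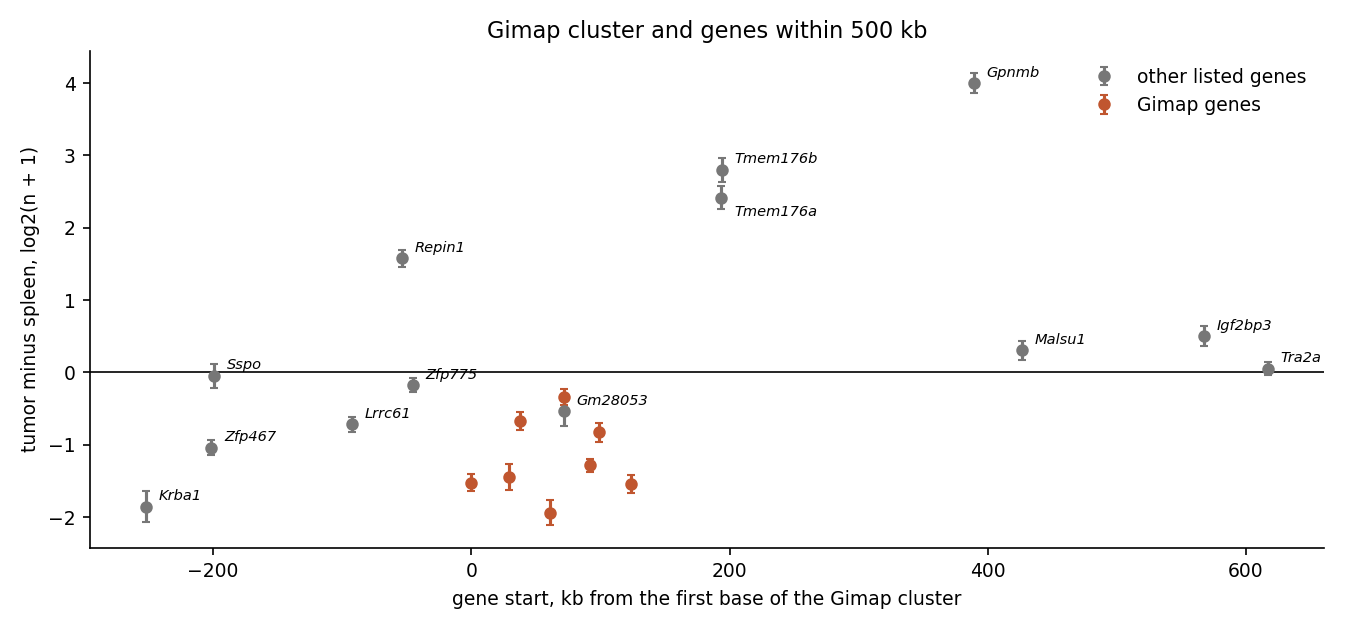
Difference, tumor minus spleen in log2(n + 1) with SE bars, of the 8 Gimap genes (red) and 13 other genes tested within 500 kb (gray), by distance of the gene start from the first base of the cluster in kb. The Gimap genes lie together below 0 between Zfp775 and Tmem176a, and the genes nearest to them on either side lie at or above 0 or only slightly below it.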

How the data were processed

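RNA of sorted Tregs was measured in 11 libraries, whose labels gave tissue and genotype. Libraries were made by the authors after ribosomal RNA depletion and read from one end. Reads were assigned with kallisto (mm10) and estimated counts passed to sleuth 0.30.0 and aggregated per gene symbol. The authors deposited the result for 14604 genes as log2(n + 1). The kallisto version, annotation release, strand setting and scaling of n were not given in the sources used here. The study's methods give only an approximate read depth common to all libraries, and the reads behind each library's values cannot be had from the scaled n. No counting interval is therefore given, and no count model was fitted. The spread between libraries sets the precision.

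Deposited log2 values were used without further normalization. Genes with a mean of at least 0.5 were kept (13897, with 707 removed), and all 8 Gimap genes passed. Tumor (5 libraries) and spleen (6) were compared with limma 3.58.1 in R 4.3.3, using a mean-variance trend, and the other contrasts came from a model with 4 group means. A call is a Benjamini-Hochberg adjusted p below 0.05 over all genes tested. Exact permutation tests used scipy 1.17.1. The fit was tested on simulated data. A fold is 2 to the power of the difference on the log2(n + 1) scale.

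Named genes were the members, gene models overlapping the cluster, genes starting within 500 kb, up to 5 genes of each list by size of difference, other list members where their role was described, and the 5 most and 3 least alike genes. The members and lists were chosen with earlier results of these data known. Alternatives were other scalings, pseudocounts of 0.1 and 5, filters, thresholds, a replicate block, genotype as a covariate, and leaving out each library. Centring on the CD3 genes, and T-cell centring without the second knockout tumor library, were chosen after seeing the data. Positions are from GENCODE M21 (GRCm38) and promoters from RefSeq (GRCm38.p6), in which all 8 members were matched.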

Additional observations from a re-analysis of the deposited data

How the results depend on the processing

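The number of Gimap genes called between tumor and spleen was 8 in the fit reported and 8 without any one library. Bonferroni adjustment left 5, where 1943 of 13897 genes were lower. When calls also needed a change of 1 log2 unit it was 5, where 1724 genes were lower. In wild-type mice it was 8, and 7 to 8 without one library. There it was 5 under T-cell centring (654 of all genes lower), 3 with Bonferroni adjustment (715 lower) and 5 with a difference of at least 1 (1750 lower). In knockout mice it was 7, and 5 to 7 without one library. T-cell centring left 2 there, of which 1 was higher (453 of all genes lower, 8595 higher), and Bonferroni adjustment left 0 (499 lower). The interaction and both genotype comparisons called 0 Gimap genes in every alternative run. With both genotypes pooled, 3 genes turned direction. Gimap4 (0.25), Gimap5 (0.093) and Gimap7 (0.58) were above 0 under T-cell centring. They remained above 0 under T-cell centring without the second knockout tumor library (0.14, 0.10 and 0.40), and Gimap7 was at 0.0079 under CD3 centring. Gimap1, Gimap3, Gimap6, Gimap8 and Gimap9 kept their direction and call in 26 of 26 alternatives of this pooled comparison. Within knockout mice, T-cell centring left Gimap1 (limma adjusted p = 0.709), Gimap3 (0.084), Gimap8 (0.181) and Gimap9 (0.408) not called. The cause of these changes was not tested. Bonferroni adjustment and the added threshold are stricter by construction. The labels do not say whether equal replicate numbers in the tissues mean the same mouse. Same-numbered spleen and tumor libraries correlated in their deviations from group means at -0.128, 0.00699 and -0.0722 in wild-type and 0.0193 and 0.0375 in knockout mice. With so few libraries in each group, such values cannot decide whether the libraries are paired. With a replicate block the tissue comparison called 8 Gimap genes, 8 in wild-type and 7 in knockout mice. The limits of these data are the 2 knockout tumor libraries, the unstated scaling of n, and the change of cell markers with tissue.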

Other observations

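GTPases of the GBP and IRG families were mostly higher in tumor. Of 11 of these interferon-inducible proteins, which act on membranes of intracellular pathogens, 9 were higher in tumor, 1 was lower and 1 was not called by limma with Benjamini-Hochberg adjustment, where 43.1% of all genes were higher and 35.9% lower. Their median was 0.96, beside 0.08 for all genes. Gbp2 rose by 2.61 and Iigp1 by 2.31, Gbp4 fell by 0.31, and Tgtp1 was at 0.30 and not called. The mean of the list was 5.95, 6.62 and 6.59 in wild-type and 5.99 and 6.46 in knockout tumor libraries, so that the first replicate of each genotype, the 2 tumor libraries with the highest mean of the Gimap genes, were the lowest here. In spleen the list means lay between 5.17 and 5.41.

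Autophagy genes were also mostly higher in tumor. Of 12 genes 10 were higher, 1 was lower and 1 (Becn1) was not called, beside 43.1% higher and 35.9% lower among all genes, and their median was 0.63. Gabarapl1, Sqstm1 and Gabarap, an adaptor and relatives of the Gimap6 partner Gabarapl2, rose by 2.38, 1.83 and 1.77, and Atg16l1, which helps to attach such proteins to the forming membrane, fell by 1.14. The part of the myeloid cells whose markers were higher in tumor was not tested for either list.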
